A study of Mus musculus with 6 samples.

Results

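The rodent insulin genes Ins1 and Ins2 and the amylin gene Iapp were examined in MIN6 cells, a mouse insulinoma line that secretes insulin and is used as a model of pancreatic beta cells. The members were the 3 genes at their RefSeq positions on GRCm38, out of 21883 protein-coding genes, with every peak in the gene body or within 50 kb either side. This gave 46 of the 108684 peaks in 4 libraries. The study mapped endogenous MafA by CUT&RUN: a nuclease is tethered to an antibody in opened cells, cuts the DNA around the bound protein, and the freed fragments are sequenced. All 6 samples were untreated MIN6 cells, 500000 per sample, in 3 groups of 2 replicates. They received an antibody to MafA, an antibody to H3K4me3 (the positive control) or IgG (the negative control). The IgG libraries were not analysed here, so the 4 peak lists come from the other groups. The samples come from 1 cell line, and nothing in the labels says that replicates were separate cultures.

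MafA is a basic leucine zipper factor of mature beta cells that binds MAF recognition elements and activates insulin transcription, together with the homeodomain factor PDX1 and the bHLH factor NEUROD1. H3K4me3 is a histone mark found at active promoters. Mice carry a pair of insulin genes. Ins2 is the ancestral gene, and Ins1 arose from it by retroposition and lies on another chromosome. Iapp encodes amylin, a peptide of the calcitonin family that is stored in insulin granules and secreted with insulin.

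The cell line label was checked by the mark. An H3K4me3 region found in both replicates lay in or within 1 kb of 8 of 9 beta cell marker genes, the exception being Ins1. It also lay at Gcg and Irx2, 2 of 3 alpha cell markers. Among all protein-coding genes the share was 60.6%. No delta cell (0 of 2), PP cell (0 of 1) or exocrine marker (0 of 3) carried one. The MafA lists held 33013 and 42747 peaks in replicates 1 and 2, and the H3K4me3 lists held 16020 and 16904. A typical MafA summit rested on 25 and 46 fragments in replicates 1 and 2, as recovered from the deposited fold enrichment and p-value. The counting error relative to the count was therefore smaller at a typical summit of replicate 2. Library sizes were not used here, and PCR copies may be among the fragments.

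The promoter sequences are shown because MafA peaks of both replicates covered each of these windows whole. The RefSeq table for GRCm38.p6 held 250 bases before to 50 bases after the start of Ins1 and Iapp, 2 of the 3 members, and Ins2 had no entry. The Ins1 window is chr19:52264047-52264346 and the Iapp window is chr6:142298175-142298474, both on the plus strand. Capitals mark CATCTG (an E box of the kind bound by bHLH factors), TAAT (the core of homeodomain sites) and GCTGA (the core of a MAF half-site, read as TCAGC on the other strand), on either strand.
Ins1: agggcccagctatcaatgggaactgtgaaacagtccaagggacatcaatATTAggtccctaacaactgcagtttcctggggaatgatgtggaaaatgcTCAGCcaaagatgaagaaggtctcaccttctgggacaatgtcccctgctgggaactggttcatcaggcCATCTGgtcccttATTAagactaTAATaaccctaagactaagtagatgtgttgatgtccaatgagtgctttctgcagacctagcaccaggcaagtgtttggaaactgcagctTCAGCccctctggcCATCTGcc
Iapp: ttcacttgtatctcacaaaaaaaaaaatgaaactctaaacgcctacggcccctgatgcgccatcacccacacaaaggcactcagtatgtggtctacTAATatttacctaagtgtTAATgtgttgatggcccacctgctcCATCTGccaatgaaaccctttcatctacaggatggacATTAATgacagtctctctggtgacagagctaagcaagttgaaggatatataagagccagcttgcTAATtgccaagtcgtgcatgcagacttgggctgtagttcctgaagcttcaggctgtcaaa

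The Ins1 window held CATCTG 2 times, at bases 167 to 172 and 293 to 298 counted from its 5′ end, the second copy lying 42 to 47 bases after the RefSeq start. GCTGA was also present 2 times, at bases 99 to 103 and 279 to 283, both on the minus strand. The downstream pair of GCTGA and CATCTG stands close together near the end of the window. TAAT occurred 3 times in the Ins1 window. The Iapp window held CATCTG 1 time, at bases 140 to 145, TAAT 5 times and no GCTGA. One pair of the Iapp TAAT matches overlaps on opposite strands. These letters are common. Of 32851 promoter windows of the same length in the table, 17.2% held CATCTG, 58.0% held TAAT and 54.2% held GCTGA, on either strand. GCTGA lies within TGCTGA and TGCTGAC, and TAAT within TAATTA. The search for GCTGA was added after the sequences were seen. Neither window matched TGCTGA (held by 19.5% of all windows), TGCTGAC (4.67%), the AP-1 type core TGACTCA (5.20%), the cAMP response element TGACGTCA (1.79%) or TAATTA (5.29%). Among the 4420 windows that overlapped a MafA region, the share with a match was higher than among the others for TGACGTCA (3.94% against 1.46%), TGCTGAC (6.43% against 4.40%) and GCTGA (58.1% against 53.6%). It was 19.9% against 19.4% for TGCTGA. The share was lower for TAAT (45% against 60.1%), TAATTA (2.81% against 5.68%), CATCTG (12.3% against 17.9%) and TGACTCA (4.23% against 5.35%). The groups of windows were not matched for base composition, and none of these differences was tested.

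MafA was found at all 3 genes in both replicates, and the loci differed in layout. A MafA region, the union of overlapping peaks of both replicates, lay in or within 50 kb of 3 of 3 members, where 66.1% of protein-coding genes had one. In or within 1 kb of the gene the count was also 3 of 3, against 34.3%. Ins1 had 2 regions, Ins2 had 5 and Iapp had 6. H3K4me3 was present at Ins2 and Iapp and not listed at Ins1. For H3K4me3 the count of members with a region in or within 50 kb was 2 of 3, against 75.4% of protein-coding genes, and in or within 1 kb of 2 of 3, against 60.6%. With 3 genes these counts are descriptions, and no test was made.

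**Figure D1:**
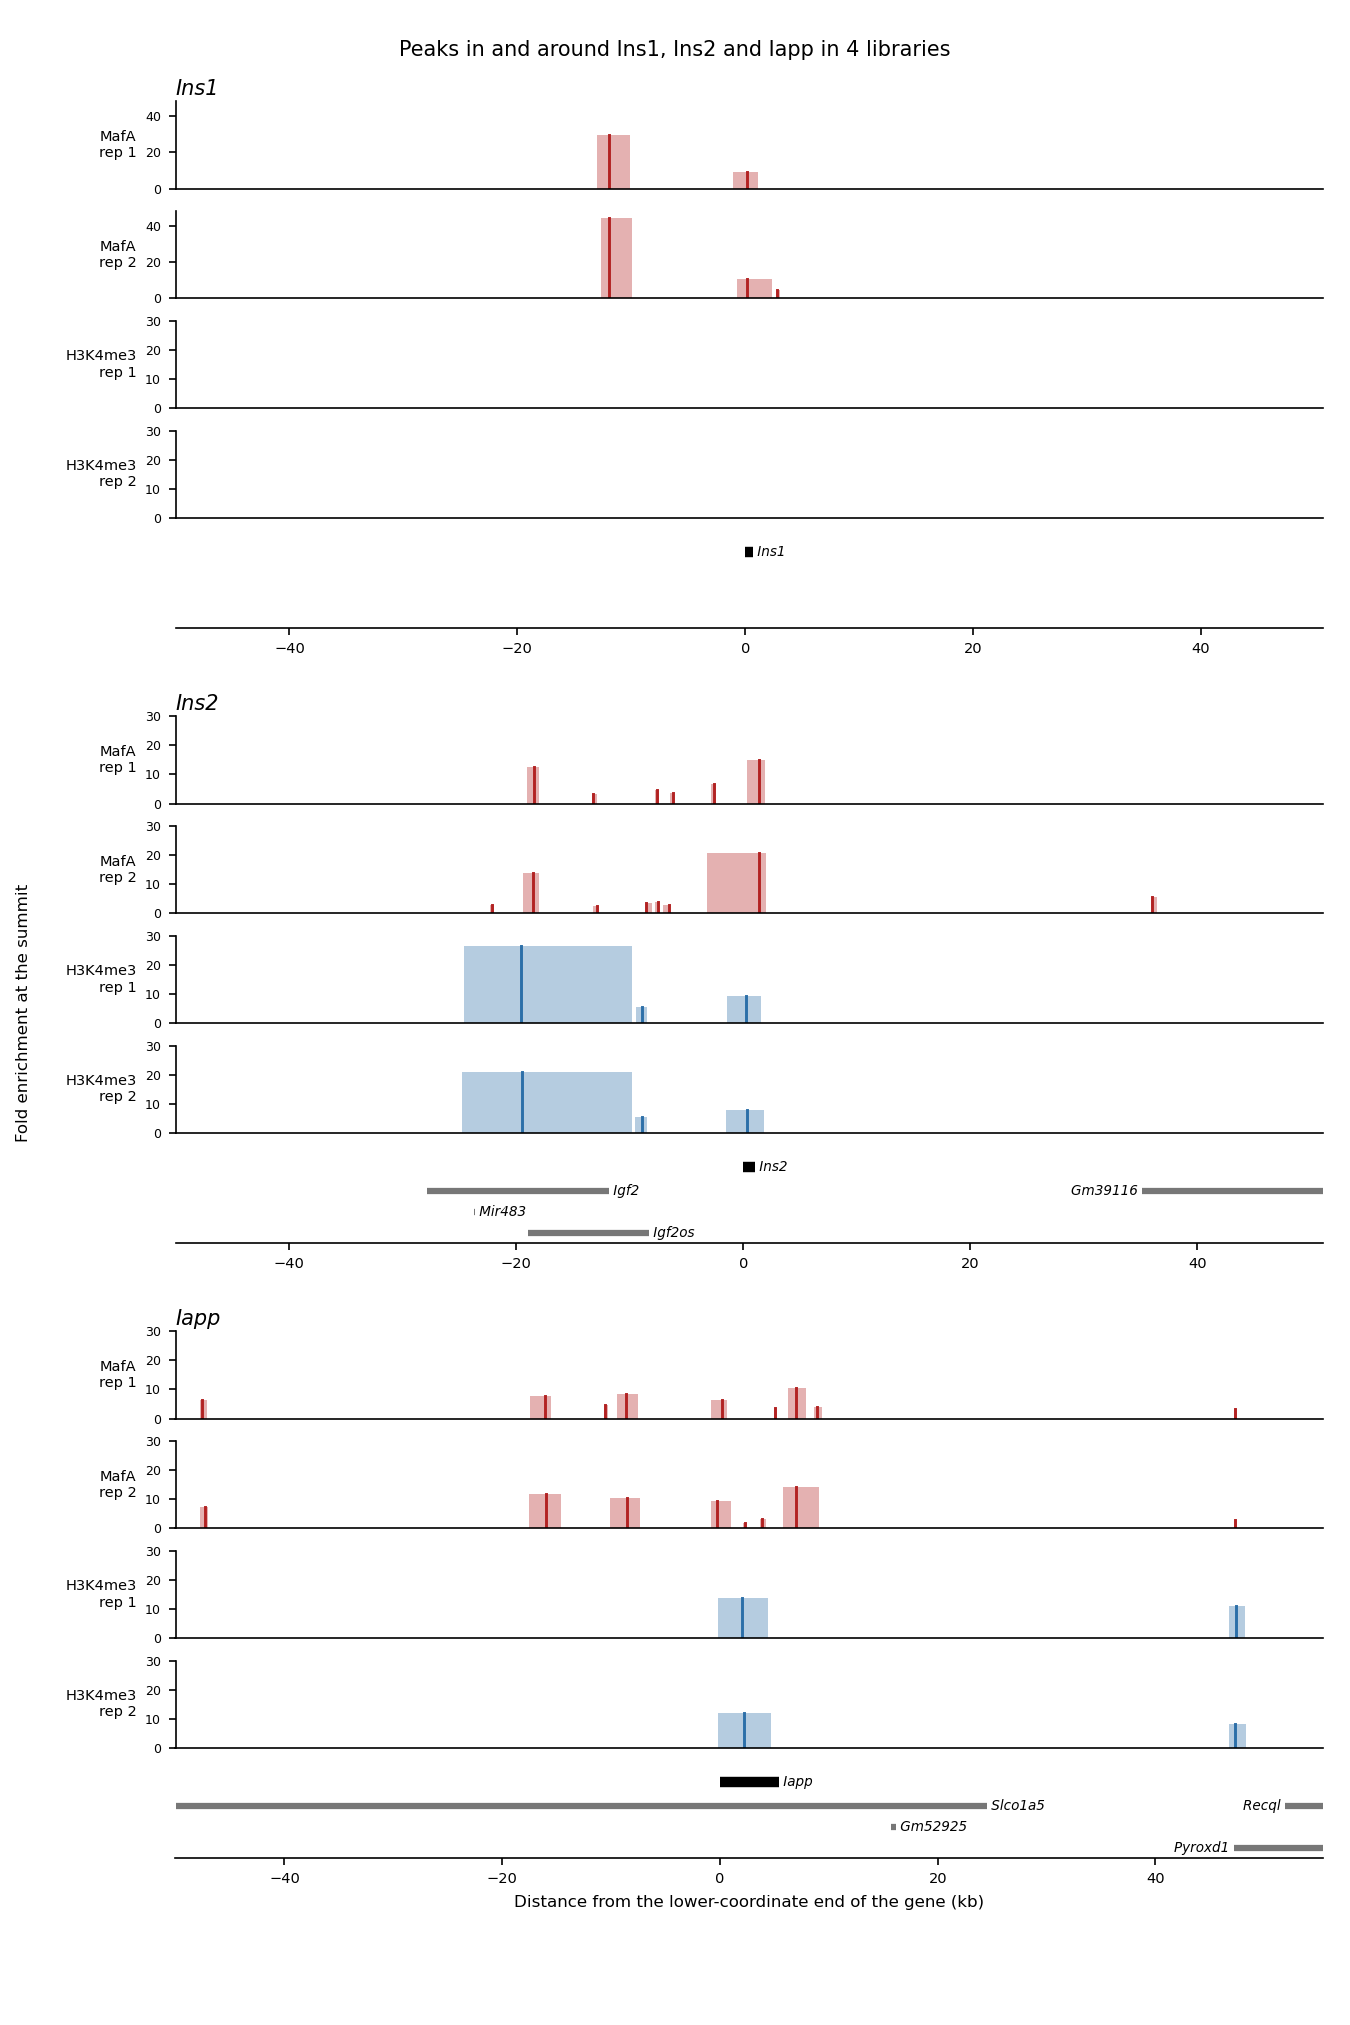
Peaks within 50 kb of Ins1, Ins2 and Iapp in each of the 4 libraries. The x axis is the distance from the lower-coordinate end of the gene in kb, the y axis the deposited fold enrichment at the summit (linear, from 0, with its own scale for the Ins1 MafA tracks). Shaded boxes span the peaks, vertical lines mark summits, and bars below show annotated genes. Ins1 has 2 MafA regions and empty H3K4me3 tracks, while Ins2 and Iapp have the mark over the gene.

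Ins1 occupies chr19:52264297-52265015, 719 bp in all, and has no other annotated gene within 50 kb. The nearest protein-coding genes were Xpnpep1, which encodes an aminopeptidase, 666264 bp above it and Sorcs1, a sorting receptor gene, 1585168 bp below it. The MafA region with the highest fold enrichment of the 3 loci lay upstream of Ins1, at chr19:52251274-52254358. Its fold enrichment, the pileup at the summit over the modelled background, came to 29.4 in replicate 1 and 44.0 in replicate 2 (36.7 ± 10.3, mean ± SD, n = 2). Both values were high in their lists, above 99.7% and 99.95% of peaks. The summits lay 11980 and 11986 bp before the RefSeq start, 6 bp apart, where all MafA regions had a median gap of 55 bp between replicate summits.

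The second Ins1 region spanned the gene itself, at chr19:52263270-52266620. Fold enrichment was 8.94 and 10.8 in replicates 1 and 2 (9.86 ± 1.30, mean ± SD, n = 2), above 86.0% and 90.9% of the peaks of each list. Its summits fell inside the gene as annotated, 155 and 142 bp after the RefSeq start. They stood 108 and 95 bp beyond the downstream CATCTG of the printed sequence, and 123 and 110 bp beyond the downstream GCTGA. Where transcription begins in these cells was not measured, so the place of summits and motifs relative to it is not known here. In both replicates the distal region had the higher fold enrichment, by more than the spread between replicates of either region. In fragments the difference was smaller, 105 and 262 at the distal summit against 77 and 172 at the gene. The 95% Poisson intervals overlapped in replicate 1 (85.9 to 127 and 60.8 to 96.2) but not in replicate 2 (231 to 296 and 147 to 200). The modelled background, by which fold enrichment divides, was 2.60 and 4.65 fragments at the distal region and 7.72 and 14.7 at the gene. The regions were 3085 and 3351 bp wide, where the median MafA region was 918 bp wide.

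No H3K4me3 peak lay within 50 kb of Ins1 in either replicate. The nearest one in both lists was 772069 bp away, at the higher-coordinate end of Xpnpep1, and 95.4% of protein-coding genes had an H3K4me3 region nearer than that. A MafA region without an H3K4me3 region in or within 1 kb was found at 3.38% of protein-coding genes. For 50 kb either side the share was 4.52%, and Ins1 was the 1 member with this pattern under both windows. A list gives called peaks only, so signal below the calling threshold was not measurable. Ins1 and Ins2 share much of their sequence. How reads that matched both copies were treated is not given in the sources used here, so the division of fragments between the gene bodies is uncertain.

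Ins2 occupies chr7:142678656-142679726. As background, it is transcribed toward lower coordinates, so its higher-coordinate end is the promoter end. The main MafA region lay there, at chr7:142675469-142680691, and overlapped the gene. Its values were 14.9 and 20.8 (17.8 ± 4.16, mean ± SD, n = 2), above 96.3% and 98.4% of the peaks of each list. The replicates placed the summit at the same base, chr7:142680088, 362 bp beyond the higher-coordinate end of the gene. The region was 5223 bp wide, wider than 99.9% of MafA regions. In replicate 2 it was 1 peak. In replicate 1 it was 2 separate peaks, of which the weaker had a fold enrichment of 6.61 and a summit 2602 bp below the lower-coordinate end of the gene.

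H3K4me3 lay over Ins2 at chr7:142677172-142680497, with fold enrichment of 9.44 and 7.84 (8.64 ± 1.13, mean ± SD, n = 2). These values were low for the mark, above 31.5% and 29.5% of the peaks of each list. The H3K4me3 summits fell inside the gene. They lay 1224 and 1094 bp from the MafA summit, which stood 157 and 409 bp inside the outer edge of the mark in replicates 1 and 2. The mark and MafA thus peaked at different places in the same region, with MafA at its promoter side.

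The other 4 MafA regions around Ins2 lay below the gene, toward Igf2. Igf2, the gene of insulin-like growth factor 2, is 11840 bp from Ins2, and its antisense transcript Igf2os is 8300 bp away. The strongest of the 4 lay within Igf2 and overlapped Igf2os, at chr7:142659256-142660715. Its fold enrichment was 12.4 and 13.9 (13.2 ± 1.08, mean ± SD, n = 2), and its summits lay 18439 and 18523 bp below Ins2. Since the Igf2 and Ins2 windows overlap, these peaks cannot be assigned to either gene. The remaining 3 regions were weak, with fold enrichment from 2.56 to 4.61 over both replicates and summits 6211 to 13195 bp below the gene.

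The Igf2 part of the window also held the broadest H3K4me3 region of the 3 loci, at chr7:142653909-142668853. It was 14945 bp wide, against a median of 1837 bp for all H3K4me3 regions, with fold enrichment of 26.6 and 20.8 (23.7 ± 4.03, mean ± SD, n = 2). It overlapped all 4 Igf2 promoter windows of the table and the microRNA gene Mir483. The MafA region with a mean fold enrichment of 13.2 and the weakest of the Ins2 window, with 2.88, lay within it. A small H3K4me3 region with fold enrichment of 5.37 and 5.34 adjoined it and overlapped no MafA region found in both replicates.

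**Figure D2:**
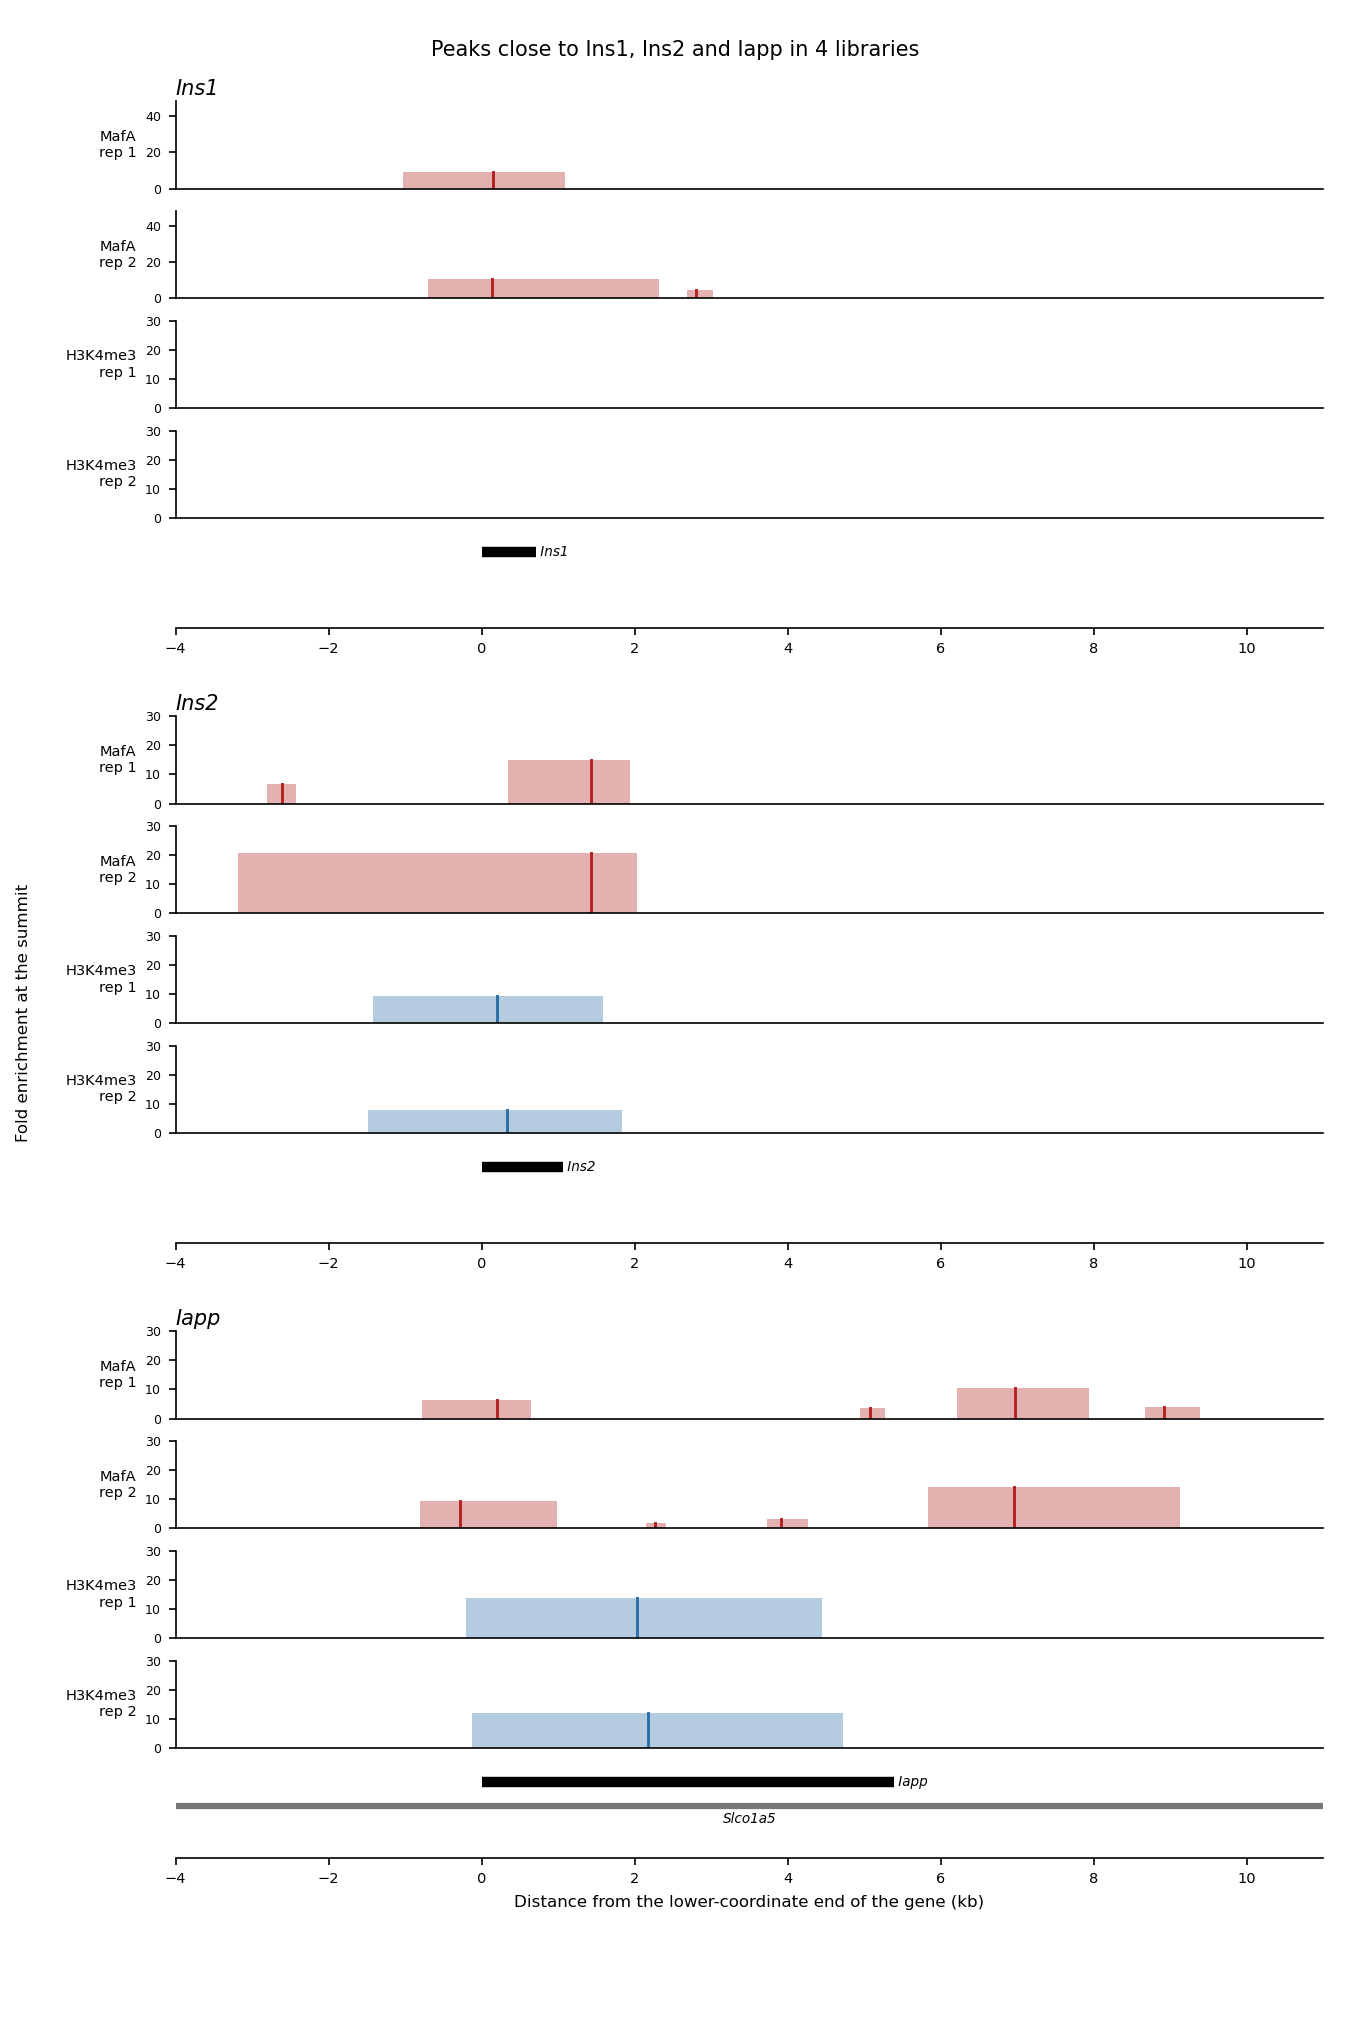
The same peaks drawn from 4 kb below to 11 kb above the lower-coordinate end of each gene. The x axis is distance in kb and the y axis the deposited fold enrichment at the summit. The MafA summits at Ins2 coincide beyond the gene's higher-coordinate end, the H3K4me3 summits of Ins2 and Iapp lie inside the gene, and a MafA region follows the end of Iapp.

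Iapp occupies chr6:142298425-142303820 on the plus strand and lies within the span of Slco1a5, an organic anion transporter gene. Above it within 50 kb lie the pseudogene Gm52925, at 10296 bp, Pyroxd1, at 41807 bp, and Recql, at 46522 bp. The Iapp window had 6 MafA regions, with mean fold enrichment from 3.09 to 12.4. The farthest above the gene overlapped Pyroxd1 and all the others overlapped Slco1a5, so these regions cannot be assigned to Iapp alone. The promoter region, at chr6:142297620-142299414, had fold enrichment of 6.51 and 9.49 (8.0 ± 2.11, mean ± SD, n = 2). Its summits were 204 bp after the start in replicate 1 and 284 bp before it in replicate 2. This gap of 488 bp was the largest among the 13 regions, so the summit position at the Iapp promoter was less well defined than at Ins1 or Ins2. The CATCTG of the printed window lay between them, 310 and 173 bp from the summits of replicates 1 and 2.

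The region with the highest fold enrichment at Iapp lay past the end of the gene, at chr6:142304265-142307814. Values were 10.5 and 14.3 (12.4 ± 2.70, mean ± SD, n = 2), with summits 1577 and 1562 bp beyond the gene, 15 bp apart. A pair of upstream regions stood at 8600 and 8561 bp and at 16061 and 15973 bp before the start. Their fold enrichment was 8.37 and 10.3 for the nearer (9.35 ± 1.38, mean ± SD, n = 2) and 7.69 and 11.7 for the farther (9.67 ± 2.81). Both lay outside H3K4me3 regions. Within each replicate the promoter region had a lower fold enrichment than both upstream regions, and also fewer fragments, 71 and 164 against 119 and 303 for the nearer and 93 and 233 for the farther. The upstream regions changed order between replicates in fold enrichment. The mean ± SD ranges of all 3 regions overlapped, and none of these differences was tested. A further region, 47554 and 47324 bp below the gene, had values of 6.22 and 7.46.

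H3K4me3 covered most of Iapp, at chr6:142298224-142303156, with fold enrichment of 13.7 and 12.0 (12.8 ± 1.19, mean ± SD, n = 2), above 45.6% and 44.2% of the peaks of each list. The mark had a higher fold enrichment at Iapp than at Ins2 in both replicates, 13.7 against 9.44 and 12.0 against 7.84. The H3K4me3 summits at Iapp lay 2029 and 2181 bp after the start, 1825 and 2465 bp from the MafA promoter summits. The other H3K4me3 region of the window was at Pyroxd1, an oxidoreductase gene, with fold enrichment of 11.1 and 8.29. MafA was weak there, at 3.33 and 2.85, above 11.4% and 9.13% of the peaks of each list.

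The depth behind each region was then compared. At the distal Ins1 region the summit held 105 fragments in replicate 1 (exact 95% Poisson interval 85.9 to 127) and 262 in replicate 2 (231 to 296). The Ins2 promoter summit held 130 (109 to 154) and 353 (317 to 392). The strongest region in Igf2 held 145 (122 to 171) and 300 (267 to 336), and the nearer upstream region of Iapp held 119 (98.6 to 142) and 303 (270 to 339). The region past the end of Iapp, the highest there by fold enrichment, held 76 and 210. In both replicates the 4 regions given first held the most fragments of the 13. Among these 4 the distal Ins1 region had the lowest value in both replicates. Its intervals overlapped those of the Igf2 and Iapp regions in both replicates, and that of the Ins2 promoter in replicate 1 but not in replicate 2. Its modelled background was 2.60 and 4.65 fragments, against 7.80 and 15.7 for the Ins2 promoter. Fold enrichment divides by that background, so the order of Ins1 and Ins2 depended on the measure. The intervals cover counting error only, as PCR copies are not independent molecules.

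**Figure D3:**
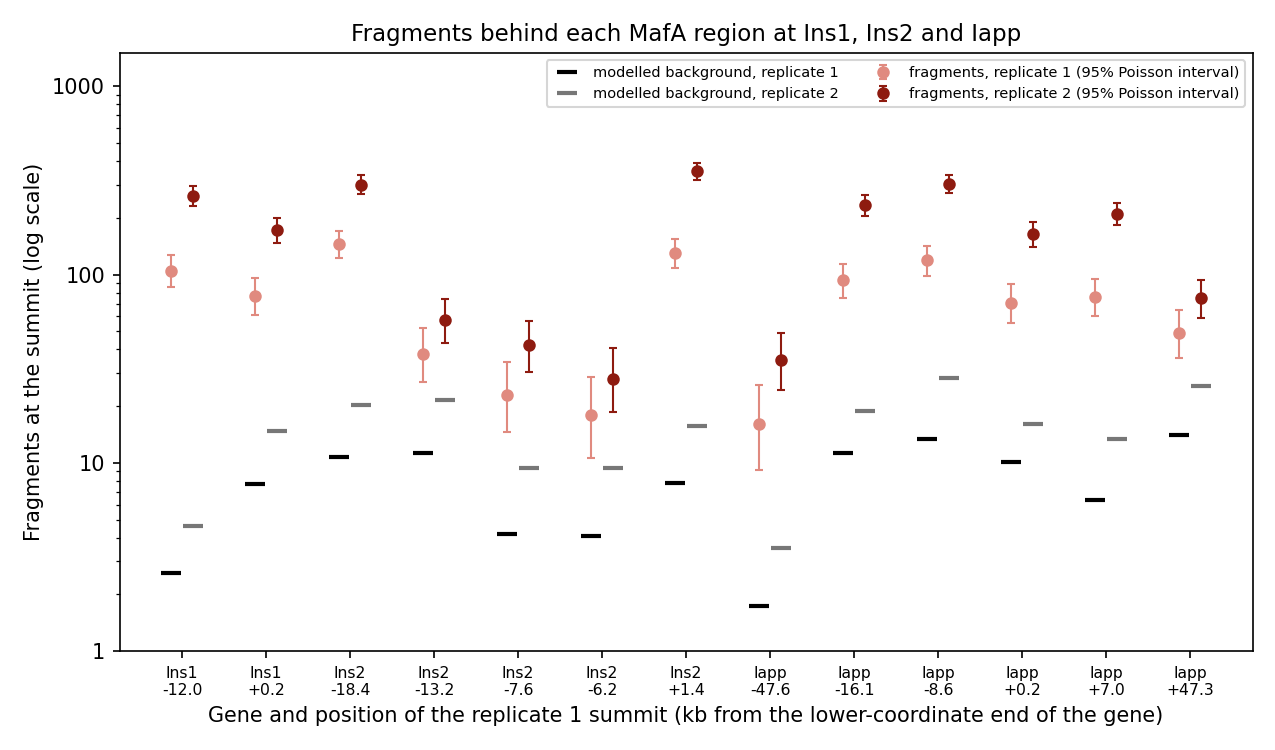
Fragments at the summit of each of the 13 MafA regions in replicates 1 and 2, on a log axis, with exact 95% Poisson intervals, and the modelled background as horizontal marks in the same unit. The x axis names the gene and the replicate 1 summit position in kb. Replicate 2 is higher in all 13 regions, and the distal Ins1 region has a background of 2.60 and 4.65 fragments.

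Replicate 2 had more fragments at all 13 regions, by 1.5 to 2.76 times (median 2.23), where the median over all 25894 MafA regions was 2.09. Fold enrichment was higher in replicate 2 in 9 of the 13 and lower in 4. The 4 were the 3 weak regions below Ins2 and the region at Pyroxd1, all with mean fold enrichment under that of the other 9. Of the 13 regions, 4 reached the 90th percentile of mean fold enrichment over all MafA regions and 9 reached the median. The 4 were the distal Ins1 region, the Ins2 promoter, the region in Igf2 and the region past the end of Iapp. An H3K4me3 region was overlapped by 5 of the 13, where 23.5% of all MafA regions overlapped one. Only the Ins2 and Iapp promoter regions overlapped a mark over a member gene. The others were 2 regions in the mark at Igf2 and the region at Pyroxd1.

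**Figure D4:**
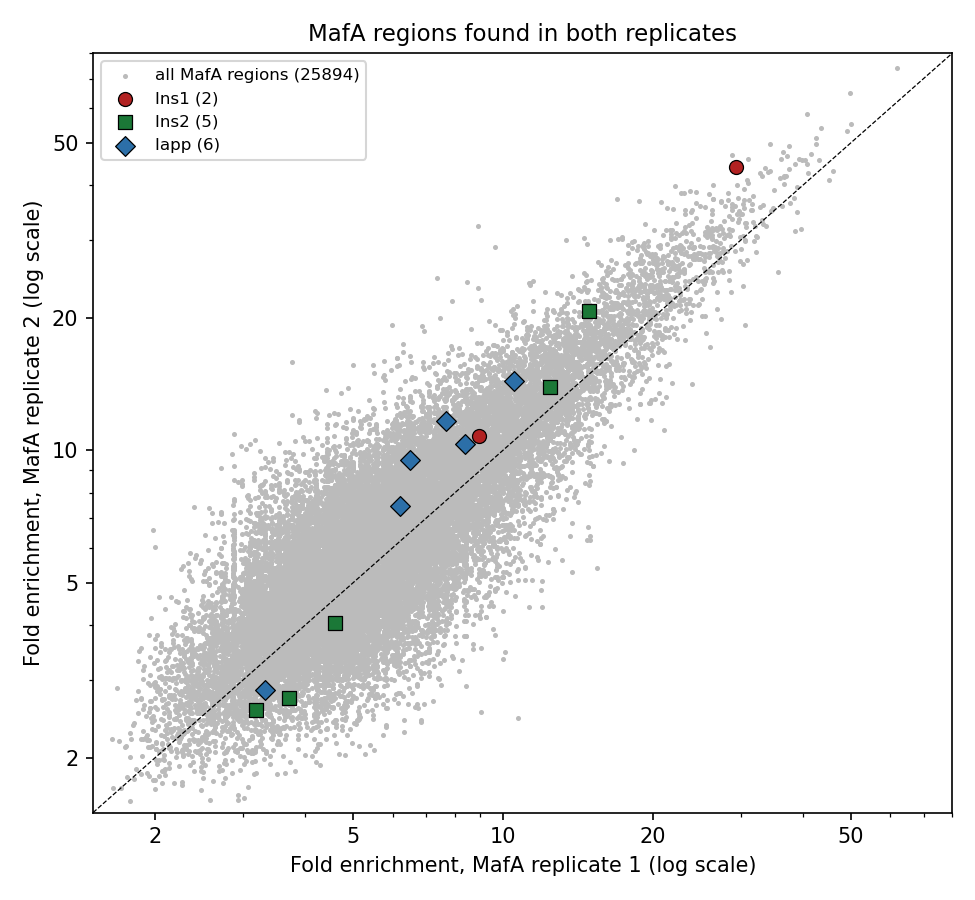
Fold enrichment of MafA regions in replicate 1 (x axis) and replicate 2 (y axis), both on log axes. Grey points are all 25894 regions found in both replicates, large symbols are the 2, 5 and 6 regions at Ins1, Ins2 and Iapp, and the dashed line marks equal values. The distal Ins1 region, at 29.4 and 44.0, lies among the highest values.

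Among all protein-coding genes, ranked by the highest mean fold enrichment of a region in or within 50 kb, 47 genes stood at or above the value of Ins1. For Ins2 the number was 1107 and for Iapp it was 2718, of 21883, each number including the member itself. The median over the 14465 genes with a region was 7.16. Longer genes have more room for a region in this window, and the ranking was not matched for length. It used fold enrichment only, whereas by fragments the Ins2 promoter stood above the distal Ins1 region in both replicates.

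Relatives and partners of the 3 genes gave a frame for these values. In the insulin and relaxin superfamily, 7 of 7 other genes had a MafA region in or within 50 kb, and 2 of 7 had one in or within 1 kb. The highest value, 17.8 at Igf2, belonged to the Ins2 promoter region in the shared window, followed by Rln3 with 9.12 and Igf1 with 8.51. In the calcitonin family, to which amylin belongs, 2 of 4 genes had a region, with 8.77 at Adm and 3.32 at Adm2, and none in or within 1 kb. Neither of the other genes of this list, Calca and Calcb, had one. Of 5 other islet hormone genes 3 had a region: Gcg, the glucagon gene, with 16.1 (21.0 and 11.1 in replicates 1 and 2), Ghrl with 9.88 and Sst with 4.29.

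All 12 genes encoding activators of the insulin gene had a region in or within 50 kb, and 9 had one in or within 1 kb. The highest values were 27.6 at Mafa itself, which had no region in or within 1 kb, 21.6 at Pdx1 and 13.4 at Nkx6-1. All 10 genes of prohormone processing and the granule had a region, 7 of them in or within 1 kb. Slc30a8, which encodes the zinc transporter of insulin granules, reached 36.9 (39.0 and 34.8 in replicates 1 and 2), close to the Ins1 value of 36.7. The carboxypeptidase gene Cpe reached 19.7, and Ero1b, which encodes an oxidase of disulphide formation, 15.2. Of 6 receptor genes 4 had a region, led by Igf1r with 11.3, Ramp2 with 9.88 and Ramp1 with 4.37. These counts are read against 66.1% and 34.3% of all protein-coding genes and were not tested.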

How the data were processed

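CUT&RUN libraries of MIN6 cells were sequenced as 150 bp pairs, per the labels' protocols. Peaks were called with MACS2 on builds GRCm38 and mm10, per the submitters' processing notes. The aligner, MACS2 version, duplicate handling and control library are not given in the sources used here. The lists were made per library. In the deposited lists, fold enrichment is the linear ratio between pileup and modelled background at the summit, and the deposited −log10 p and −log10 q belong to the same base. The lowest −log10 q was 2.00. The deposited score was not used.

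Peaks were handled in pandas 2.3.3 with numpy 2.4.6 under Python 3.11.15, intervals came from scipy 1.17.1, and plots from matplotlib 3.10.9. Positions are 1-based. Replicate peaks sharing at least 1 bp formed a region, and the strongest peak of each replicate gave its values. Fragments were solved from fold enrichment, with a pseudocount of 1, and the Poisson p-value for peaks with −log10 p up to 290. A whole number of fragments, within 0.02 fragments or a rounding allowance at high counts, was found for 100% of these. The routines were tested on simulated data. No test was made: values are given per replicate, and MafA and H3K4me3 enrichment are different quantities.

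Gene positions and promoters came from RefSeq tables of GRCm38.p6. The members and lists were chosen with earlier results of these data known. The text names the 3 genes, their neighbours within 50 kb, and the 3 genes of highest fold enrichment in each of 6 lists of 44 genes. Other settings tried were a stricter −log10 q minimum of 5, equal numbers of strongest peaks, 50% reciprocal overlap, windows of 10 and 100 kb, other measures of strength, and leaving out each replicate.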

Additional observations from a re-analysis of the deposited data

How the results depend on the processing

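Of 79 alternative values, 61 stayed within their limits of change and 18 did not. The limits were a fixed ratio for counts, the replicate SD for fold enrichment and summit position, and a counting interval for the share of genes. A single replicate's fold enrichment for the same region always lies within the SD of the 2 replicates. The 61 therefore include values that could not pass their limit. The number of MafA regions at Ins2, 5 as reported, was 2 for the 16020 strongest peaks of every library, 3 with 50% reciprocal overlap and 3 with 10 kb either side. Single replicates gave 6 to 8, with 8 when replicate 1 was left out. At Iapp, 10 kb either side left 3 MafA regions and 1 H3K4me3 region. The highest fold enrichment at Ins2 was 13.2 with 50% reciprocal overlap, which drops the promoter region because its peaks differ in width between replicates. At Iapp it was 16.0 with 100 kb either side, and 9.35 when the strongest region was picked by −log10 q or by recovered fragments. Picked by −log10 q, the strongest Iapp position moved from 6964 to -8580 bp from the start, so which Iapp region leads depends on the measure. The share of protein-coding genes with a MafA region, 66.1%, was 62.3% with the −log10 q minimum of 5, 42.0% for the strongest peaks, 60.3% with 50% reciprocal overlap, 44.0% and 77.0% with 10 and 100 kb either side, and 70.8 to 76.6% in single replicates. At Ins1 none of the alternatives run passed these limits: 2 to 3 MafA regions, 0 H3K4me3 regions, and 29.4 to 44.0 for the highest fold enrichment in single replicates. The values 29.4 and 44.0 could not pass their limit, because the same replicates set it. No paired analysis was possible because no result comes from a test. The search of 100 bp around summits for motifs was not run, since no genome was used here. At the 4 regions of lowest fold enrichment, counts of 18 to 75 fragments limit the precision. So do the 16 and 35 fragments of replicates 1 and 2 at the Iapp region 47554 and 47324 bp below the gene.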

Other observations

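Of the 36 MafA peaks in the 3 windows, 8 had no overlapping peak in the other replicate. Over both whole lists 30.3% of MafA peaks had none, 18.8% in replicate 1 and 39.2% in replicate 2. Fold enrichment of the 8 ran from 1.91 to 5.54, with 17 to 60 fragments at the summit. The strongest of them, with 5.54 and 39 fragments in replicate 2, lay 34964 bp above Ins2 within the long noncoding RNA gene Gm39116. Replicate 2 alone had a peak 2091 bp past the end of Ins1, with a fold enrichment of 4.40 and 27 fragments. Inside Iapp, replicate 1 alone had a peak of 3.69 near the end of the gene, while replicate 2 alone had 2 others, of 1.91 and 3.14, at different positions. These peaks were each seen in 1 library and were not counted as regions.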
